A study of Homo sapiens with 2 samples.

Results

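Regulated exocytosis genes encode proteins that hold secretory vesicles at the plasma membrane and fuse them when calcium rises. The 6 genes described here are RIMS2, SYT1, STXBP6, SYT7, SYT11 and SNAP25, out of 20045 genes with a named probe. They were listed by name after their values were known: RIMS2, SYT1 and STXBP6 stood among the genes measured above background only after the inhibitor, and SYT7, SYT11 and SNAP25 were added as relatives. All 12 probes that the platform annotation maps to these genes are given, 1 each for RIMS2 and SYT11, 2 each for SYT1, STXBP6 and SNAP25, and 4 for SYT7.

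The cells were HCT116, an established human colorectal carcinoma line, labelled p53+/+ in both groups. One group was given 10 nM SB590885, a synthetic compound that inhibits RAF kinases, and the other received vehicle. The time of exposure is not given in the sources used here. RNA from each group was hybridised to 1 Illumina bead array, so there were 2 arrays in all and no replicates. No test could be made, and every difference below is one between these 2 arrays.

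In this machinery, SNARE proteins on the vesicle and on the target membrane zip together and drive fusion. Synaptotagmins are vesicle proteins with paired C2 domains, and several of them bind calcium and couple its entry to fusion. RIM proteins organise the release site and bind RAB3, vesicle calcium sensors act on the assembled SNAREs, and binding partners such as amisyn hold SNAREs back. The set is best known from neurons and endocrine cells. In the colon the cells known for it are the hormone-releasing enteroendocrine cells, whereas most epithelial cells rely on more broadly expressed relatives such as SNAP23.

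Values are the authors' normalized intensities in array units, with background left in. A probe was counted as detected on an array when its deposited detection p was under 0.01. The lowest detected intensity was 129.8 on the SB590885 array and 132.2 on the vehicle array. Of the 47318 probes, 35.3% were detected after SB590885 and 33.7% with vehicle. Where 1 array did not detect a probe, the fold is a bound, taken against the higher of the undetected intensity and that array's lowest detected intensity, and is written as "at least".

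Of the 12 probes, 1 was detected on both arrays, 5 only after SB590885, none with vehicle alone, and 6 on neither. By gene, SYT7 was detected on both arrays, RIMS2, SYT1, STXBP6 and SYT11 only after SB590885, and SNAP25 on neither array. Among all 10430 detected genes, 9405 were detected on both arrays, 688 only after SB590885 and 337 only with vehicle. The lowest detected intensity was lower on the SB590885 array (129.8) than on the vehicle array (132.2). Counts of detection on 1 array are therefore not on equal terms for dim probes. RIMS2, SYT1 and STXBP6 were higher after SB590885 by at least 1.5-fold, and no member was 1.5-fold lower. Over all 10430 detected genes 1.51% were at least 1.5-fold higher and 1.16% at least 1.5-fold lower. The members were chosen from this same contrast, so their count carries no weight of its own beside these shares.

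RIMS2 encodes RIM2, a scaffold of the release site that binds RAB3 on vesicles. Its single probe, ILMN_1665257, had an intensity of 250.9 after SB590885, with a detection p of 0, against 116.8 with vehicle, with a detection p of 0.258. The vehicle value lay in the range of undetected probes, while the SB590885 value was brighter than 51.3% of the probes detected on its array. The bound was at least 1.90-fold higher after SB590885, the largest of the 6 genes. RIMS2 lies on chromosome 8. With no second probe, nothing on these arrays repeats its measurement.

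SYT1 encodes synaptotagmin 1, the calcium sensor for fast transmitter release in neurons. Its probe ILMN_1742881, annotated to a RefSeq transcript, read 237.5 after SB590885 (detection p of 0) and 122.9 with vehicle (detection p of 0.0649). This gave at least 1.80-fold higher after SB590885. The second SYT1 probe, ILMN_1838187, is annotated to a GenBank sequence and not to a RefSeq transcript. It read 111.0 after SB590885 (detection p of 0.582) and 108.1 with vehicle (detection p of 0.784), so it was detected on neither array and has no fold. The 2 SYT1 probes therefore differed: one was bright after SB590885, and the other stayed at background on both arrays.

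STXBP6 encodes amisyn, a syntaxin-binding protein whose SNARE-like region lets it join syntaxin and SNAP25 in place of the vesicle SNARE. Its probe ILMN_1750912 read 232.1 after SB590885 (detection p of 0) and 126.3 with vehicle (detection p of 0.0247), at least 1.76-fold higher. The second STXBP6 probe, ILMN_2172969, is annotated to the same RefSeq transcript. It read 111.1 after SB590885 (detection p of 0.575) and 109.5 with vehicle (detection p of 0.691). As for SYT1, only 1 of the 2 probes left background, and only on the SB590885 array.

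SYT7 encodes synaptotagmin 7, a slow calcium sensor of high affinity with roles in lysosome exocytosis and hormone release. Its probe ILMN_2380938 was the brightest of the 12 and was detected on both arrays, at 493.1 after SB590885 and 335.6 with vehicle. SYT7 was 1.47-fold higher after SB590885, a log2 ratio of 0.56, just short of the 1.5-fold rule. The other 3 SYT7 probes lay at the limit of detection. ILMN_1854861 read 130.1 after SB590885 and 129.9 with vehicle, ILMN_1688831 read 121.7 after SB590885 and 124.7 with vehicle, and ILMN_1810120 read 120.04 after SB590885 and 127.8 with vehicle. Their measured log2 ratios were 0.0018, -0.03 and -0.09, at a brightness where a ratio carries no information on SYT7. The mean over the 2 detected SYT7 probes, with ILMN_1854861 set at 0 because it has no fold, was 0.28 on the log2 scale.

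SYT11 encodes a synaptotagmin that does not bind calcium and is linked to vesicle retrieval. Its probe ILMN_1717934 read 143.1 after SB590885 (detection p of 0.0039) and 127.6 with vehicle (detection p of 0.0182), at least 1.08-fold higher. It was dim on both arrays, brighter than 16.6% of the detected probes on the SB590885 array. SYT11 and the SYT7 probe ILMN_1854861 were the members nearest the detection threshold: that SYT7 probe passed it after SB590885 with a p of 0.00909 and missed it with vehicle at 0.0156. It lay below the lowest detected vehicle intensity on both arrays, so it has no fold.

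SNAP25 encodes the plasma membrane SNARE of neurons that pairs with syntaxin 1 and synaptobrevin. Neither of its probes was detected on either array. ILMN_1740555 read 113.8 after SB590885 and 114.3 with vehicle, and ILMN_2408080 read 109.6 after SB590885 and 117.8 with vehicle. SNAP25 was thus below the limit of detection in both groups, and no fold is given. The 6 member probes detected on neither array ranged from 108.1 to 127.8, with measured log2 ratios between -0.10 and 0.04. Over all 29848 probes detected on neither array, the 5th and 95th percentiles of that ratio were -0.13 and 0.13.

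**Figure D1:**
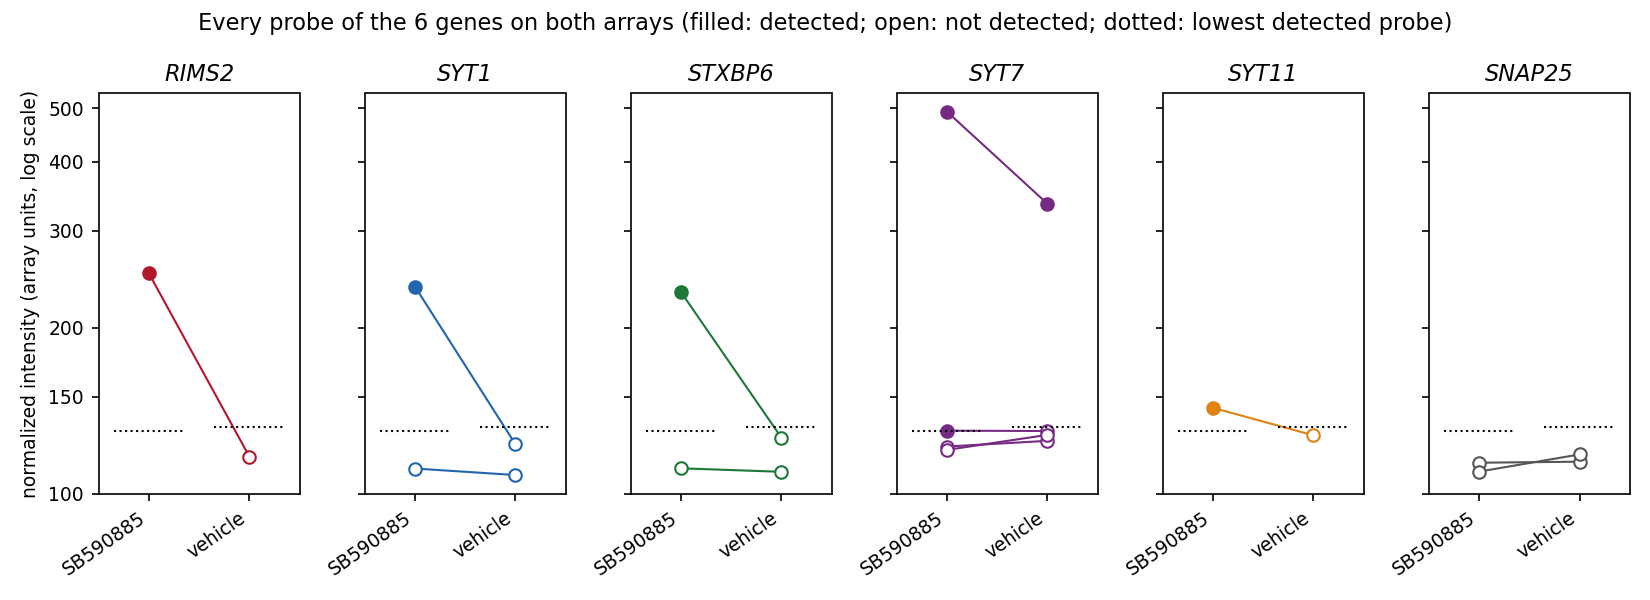
Normalized intensity (array units, log axis) of every probe of the 6 genes on the SB590885 array (left of each panel) and the vehicle array (right). Filled points were detected, open points were not, lines join the values of 1 probe, and dotted lines mark the lowest detected intensity (129.8 and 132.2). RIMS2, SYT1 and STXBP6 each have 1 probe between 232.1 and 250.9 after SB590885 that is open with vehicle.

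RefSeq's promoter table for GRCh38.p14 held windows for 3 of the members. The 250 bases before the annotated start are shown for SYT1 and STXBP6, the members with bounds past 1.5-fold that the table holds, and for SYT11, a dim relative, for comparison. STXBP6 has 3 annotated starts, and the window of the first is shown. Capitals mark matches, on either strand, to 6 motifs chosen after the sequences had been seen: the ETS core CGGAAG, the AP-1 site TGANTCA, the cyclic AMP response element TGACGTCA, the GC box GGGCGG, the CCAAT box CCAAT and the E-box CACGTG. No 2 matches overlap.
SYT1 (chr12:78864524-78864773, + strand): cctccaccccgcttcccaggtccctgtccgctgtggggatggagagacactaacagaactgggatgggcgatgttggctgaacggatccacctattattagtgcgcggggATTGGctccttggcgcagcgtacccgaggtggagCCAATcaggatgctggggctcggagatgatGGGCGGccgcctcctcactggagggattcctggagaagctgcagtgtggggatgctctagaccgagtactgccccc
STXBP6 (chr14:25050148-25050397, - strand): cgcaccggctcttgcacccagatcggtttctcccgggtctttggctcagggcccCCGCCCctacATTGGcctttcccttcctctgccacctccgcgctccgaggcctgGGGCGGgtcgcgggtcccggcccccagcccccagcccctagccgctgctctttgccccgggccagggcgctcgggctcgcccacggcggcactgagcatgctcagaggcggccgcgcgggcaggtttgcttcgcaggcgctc
SYT11 (chr1:155859317-155859566, + strand): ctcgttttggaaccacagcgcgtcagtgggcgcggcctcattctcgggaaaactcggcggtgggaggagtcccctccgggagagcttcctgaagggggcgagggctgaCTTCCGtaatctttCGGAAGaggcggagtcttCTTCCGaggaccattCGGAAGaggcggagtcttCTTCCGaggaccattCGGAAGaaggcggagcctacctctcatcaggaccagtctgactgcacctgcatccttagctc

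The SYT1 window holds 1 GC box and 2 CCAAT boxes, and the STXBP6 window 2 GC boxes and 1 CCAAT box. Over 35116 windows of the same length in the table, 42.6% hold a GC box and 32.0% a CCAAT box. None of the ETS, AP-1, cyclic AMP or E-box letters occurs in either window. These occur in 16.5%, 6.57%, 1.65% and 6.34% of all windows. The other 2 STXBP6 windows hold none of the 6 motifs. The SYT11 window holds 6 matches to the ETS core and no other motif, and 12 of the 35116 windows hold 6 or more. That number was taken from SYT11, and the motif was chosen with its sequence in view, so the share tests nothing. Several of the matches lie in a stretch of bases that is repeated directly after itself, so the 6 are not separate. The GC content was 62% for SYT1, 73.6% for the first STXBP6 window and 60% for SYT11, against a median of 58% over all windows. The other 2 STXBP6 windows had 55.6% and 44.8%. The SYT1 window and the first STXBP6 window thus both hold GC and CCAAT boxes, which are frequent in promoters. A part of any of these motifs in the measured intensities was not tested.

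Few probes showed this contrast. Of 31374 probes that were not detected with vehicle, 5 reached 232.1 or more after SB590885, where 232.1 is the level of STXBP6, the lowest of the 3. They were those of RIMS2, SYT1, STXBP6, COX7B2 and RGS17. In the other direction, 2 of 30624 probes not detected after SB590885 reached that level with vehicle, those of ZNF239 and EVA1A. The level was taken from a member, so these counts describe the arrays and test nothing.

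Among the 688 genes detected only after SB590885, the median bound was 1.02-fold and the 95th percentile 1.18-fold. In this group 7 genes (1.02%) had a bound of at least 1.5-fold. RIMS2 was 2nd, SYT1 4th and STXBP6 5th by bound, whereas SYT11 was 112th. RIMS2, SYT1 and STXBP6 were listed because they stood in this group, so these ranks reuse the values behind the choice and test nothing. The genes closest to the 3 by their 2 log2 intensities were RIMS2, SYT1, STXBP6 themselves and RGS17. RGS17, which speeds the shut-off of G-protein signalling, read 246.0 after SB590885 and 121.1 with vehicle, at a distance of 0.06 log2 units from both RIMS2 and SYT1 and of 0.10 from STXBP6. SYT1 and STXBP6 lay 0.05 apart. For SYT11 the nearest genes were HTR7, AP4M1 and TUBA3E, all within 0.0084. With 2 arrays, likeness over these values means only a similar brightness on each.

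**Figure D2:**
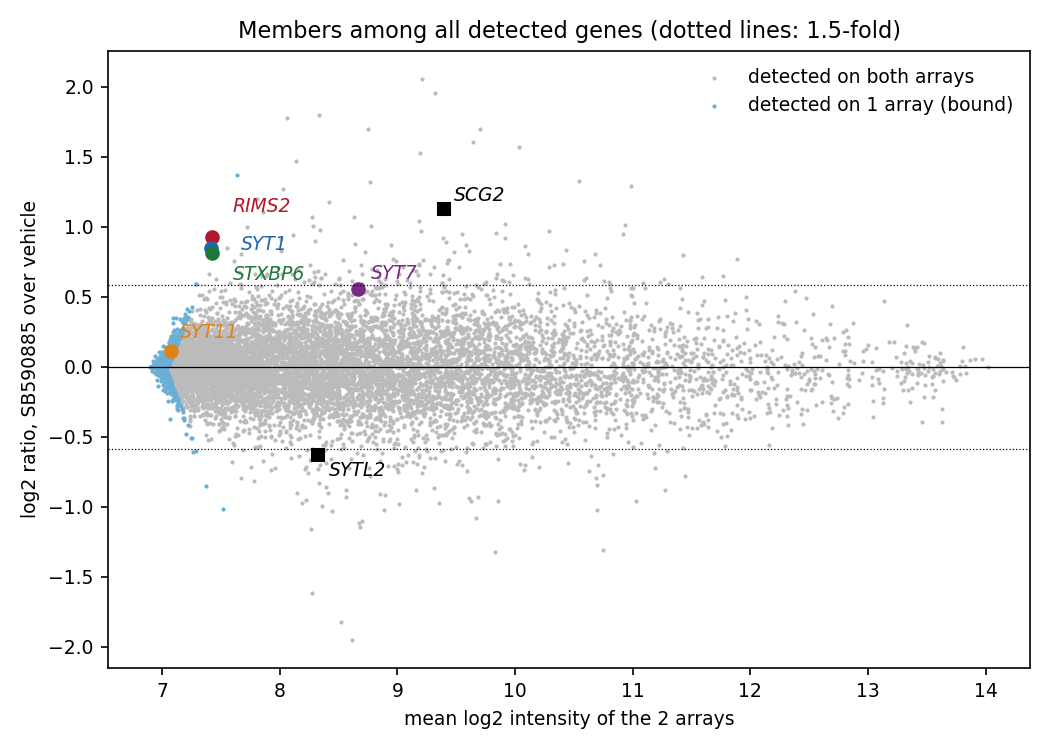
Log2 ratio of SB590885 over vehicle (vertical) against the mean log2 intensity of the 2 arrays (horizontal) for all 10430 detected genes, with 1.5-fold as dotted lines. RIMS2, SYT1 and STXBP6 lie together at a mean log2 intensity of 7.42, near the upper edge of the genes shown as bounds, and SYT7 lies at 8.67, just below the upper dotted line. SCG2 and SYTL2 are the other exocytosis genes beyond 1.5-fold.

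Of the 7 genes with a bound of at least 1.5-fold, 3 had several probes, SYT1, STXBP6 and ZNF365. For all 3 every other probe was detected on neither array and so carries no ratio. For 2295 genes with at least 2 probes detected on both arrays, the log2 ratios of the 2 brightest probes differed with an SD of 0.25, or 1.19-fold. That spread is between probes of 1 gene on the same arrays. It covers neither cultures nor hybridisations, so it does not judge a difference between the 2 arrays. On the log2 scale the bounds were 0.92 for RIMS2, 0.85 for SYT1, 0.81 for STXBP6 and 0.11 for SYT11.

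Background left in the values compresses ratios most for dim genes. With limma's neqc background correction at an offset of 16, the bounds of RIMS2, SYT1 and STXBP6 were at least 4.39-fold, 4.01-fold and 3.85-fold higher after SB590885. SYT7 was 1.66-fold higher and SYT11 at least 1.31-fold higher under that correction. The order of the 5 genes was the same, with 4 of them past 1.5-fold, beside 5.16% of all detected genes higher and 4.62% lower by as much under the same correction. The bounds of RIMS2, SYT1, STXBP6 and SYT11 are all taken against the same vehicle floor. Their order among themselves is therefore that of their SB590885 intensities, which the correction keeps, so the unchanged order is no check on them. The correction was run on already normalized values, and the size of its bounds depends on the offset. At an offset of 50 the log2 bounds of RIMS2, SYT1 and STXBP6 were 1.44, 1.34 and 1.29, against 2.13, 2.002 and 1.95 at 16. Without any detection filter the measured log2 ratios were 1.10 for RIMS2, 0.95 for SYT1, 0.88 for STXBP6 and 0.17 for SYT11.

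**Figure D3:**
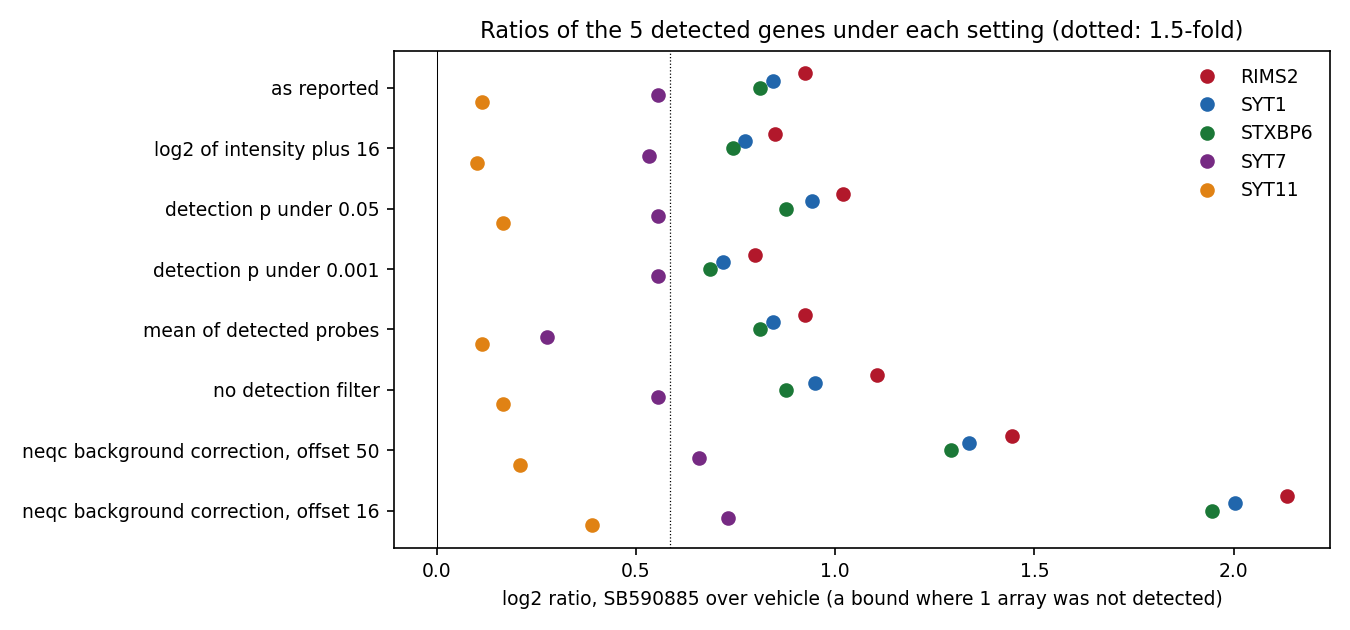
Log2 ratio of SB590885 over vehicle for the 5 detected genes under each setting, with 1.5-fold as a dotted line. RIMS2, SYT1 and STXBP6 stay to the right of the line in every setting drawn, between 0.69 and 2.13, while SYT7 lies on either side of it (0.28 to 0.73) and SYT11 to its left (0.10 to 0.39).

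The rest of the pathway was covered by 10 lists, which held 137 other genes. Of these, 130 had a named probe and 74 were detected, 65 of them on both arrays, 7 only after SB590885 and 2 only with vehicle. One was at least 1.5-fold higher (SCG2) and 1 at least 1.5-fold lower (SYTL2). For the other 72 the ratio or bound was under 1.5-fold. Genes detected on 1 array only may differ by more than their bound. By measured ratio 34 of the 74 were higher and 40 lower. Their median log2 ratio was -0.01, against -2.71e-05 over all detected genes. By ratio or bound, the 3 members past 1.5-fold were thus not accompanied by a general difference across the detected genes of these lists.

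Among the other synaptotagmins 4 of 14 were detected, with a median log2 ratio of -0.07 and none past 1.5-fold. SYT15 was the highest at 0.20 (345.7 after SB590885, 299.9 with vehicle) and SYT3 the lowest at -0.14 (131.1 after SB590885, 144.3 with vehicle). SYT2, a fast calcium sensor closely related to SYT1, was not detected on either array. Of the other calcium sensors and complexins 5 of 14 were detected, with a median of -0.07. The highest was the C2-domain sensor DOC2A at 0.06 and the lowest MYOF, a ferlin of membrane repair, at -0.26. CPLX1, complexin 1, which clamps assembled SNAREs, had 240.6 after SB590885 and 252.1 with vehicle.

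Relatives of SNAP25 and most syntaxins were detected on both arrays and lay within 1.5-fold. SNAP23, its broadly expressed relative, read 156.4 after SB590885 and 180.3 with vehicle, a log2 ratio of -0.21. SNAP29 had -0.10 and SNAP47, the highest of its list, 0.21. STX1A, syntaxin 1A, the neuronal partner of SNAP25, was detected at 286.1 after SB590885 and 256.4 with vehicle, a ratio of 0.16. STX3, a syntaxin of apical membranes, was lowest at -0.37 (402.9 after SB590885, 521.1 with vehicle). Of 9 genes in this list with a probe 8 were detected, with a median of -0.06. Vesicle SNAREs were detected for 7 of 8 genes, with a median of 0.00498. VAMP3, or cellubrevin, was highest at 0.27 and VAMP7, a SNARE of lysosome exocytosis, lowest at -0.35.

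Of the relatives and partners of STXBP6, 9 of 11 genes with a probe were detected, with a median of -0.13. STXBP2, or Munc18-2, an epithelial syntaxin chaperone, was highest at 0.27 (474.8 after SB590885, 394.8 with vehicle), and STXBP4 was lowest at -0.29 (162.7 after SB590885, 199.2 with vehicle). NSF, the ATPase that takes spent SNARE complexes apart, was bright, at 1273.2 after SB590885 and 1409.8 with vehicle, a ratio of -0.15. Among the active zone and priming partners of RIMS2, 6 of 17 genes were detected, with a median of -0.02. UNC13B, a priming factor of the Munc13 family, was highest at 0.09 and ERC1, a RIM-binding scaffold, lowest at -0.25. RIMS1, RIMS4, BSN and PCLO, further scaffolds of the active zone, were not detected on either array.

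RAB3 and RAB27 GTPases mark secretory vesicles, and RIM2 is one of the effectors of RAB3. In their list 15 of 19 genes were detected, with a median of -0.02. SYTL2, a synaptotagmin-like effector of RAB27, was 1.55-fold lower after SB590885 by its brightest probe, ILMN_2336609, at 257.9 against 399.8 with vehicle. Its other 2 probes were near the limit of detection. ILMN_1671209 read 134.7 after SB590885 and 132.9 with vehicle, and ILMN_2240221 read 120.5 after SB590885 and 136.8 with vehicle. SYTL3, a related effector, had a log2 ratio of -0.51 (817.3 after SB590885, 1164.6 with vehicle). RAB27A was highest of those detected on both arrays at 0.08, and RAB3A, the RAB3 of neurons, lay at the limit, with 131.3 after SB590885 and 121.0 with vehicle.

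The exocyst, which tethers vesicles for constitutive delivery, had 7 of 9 genes detected, with a median of -0.00271. EXOC3 was highest at 0.30 and EXOC2 lowest at -0.12. Voltage-gated calcium channel subunits, which admit the triggering calcium in neurons, were detected for 4 of 10 genes, with a median of 0.04. CACNA1B and CACNB1, detected only after SB590885 and without a fold, enter that median as 0. Over the genes detected on both arrays the median was 0.21. CACNB3, an auxiliary subunit, had 331.0 after SB590885 and 261.5 with vehicle, a ratio of 0.34, and CACNA2D2 had 0.08.

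SCG2, secretogranin II, a granin packed into dense-core granules, was the highest of the other pathway genes. Its single named probe, ILMN_1703178, read 992.5 after SB590885 and 454.5 with vehicle, 2.18-fold higher, and 2.51-fold with background correction. Over all detected genes 0.249% were at least 2-fold higher and 0.134% at least 2-fold lower. In its list of vesicle membrane and cargo genes, 9 of 19 with a probe were detected, SCG2 included, with a median of -0.00922 and no other gene past 1.5-fold. CPE, the carboxypeptidase that trims prohormones in the same granules, had the lowest ratio of those detected on both arrays, -0.37 (192.7 after SB590885, 249.2 with vehicle). SCG5, another granule protein, read 122.7 after SB590885, where it was not detected, and 144.1 with vehicle, at least 1.11-fold lower. CHGA and CHGB, the chromogranins, and SYP, synaptophysin, were not detected on either array.

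**Figure D4:**
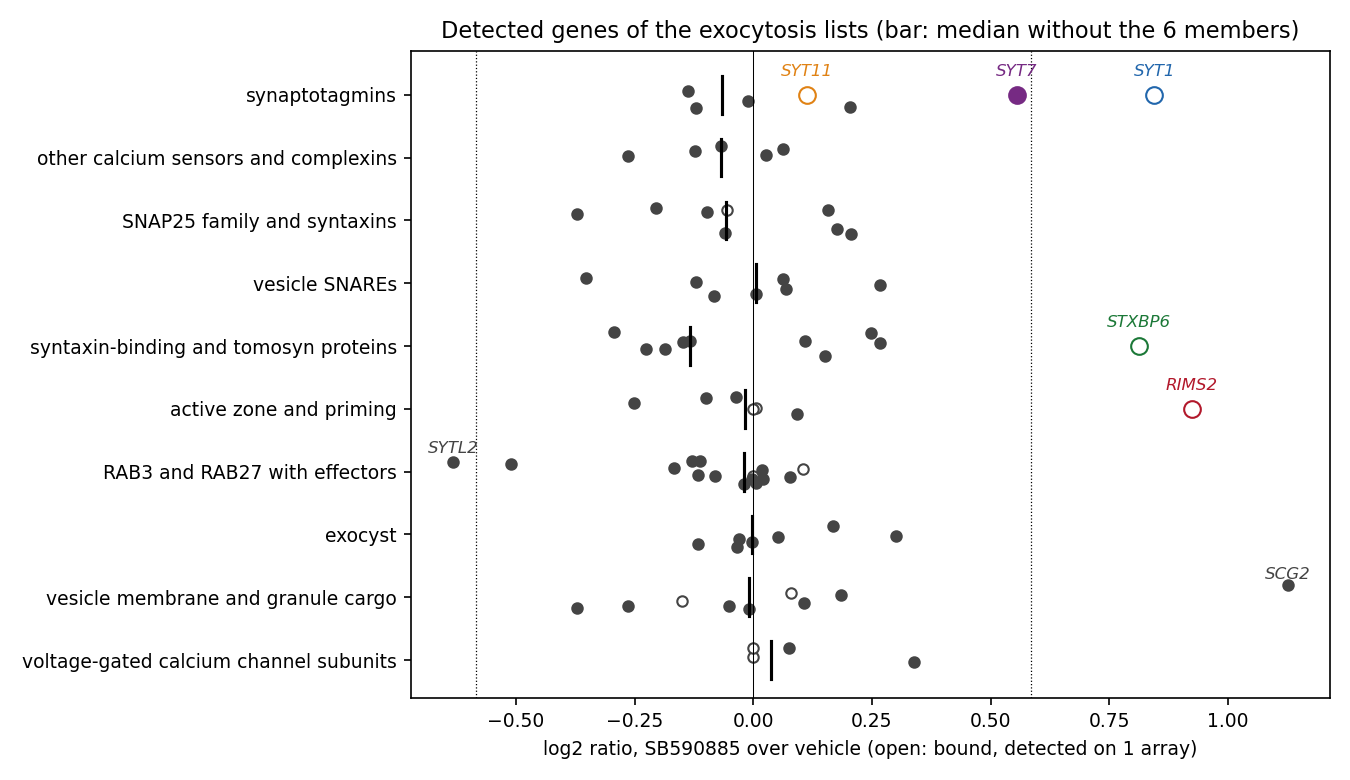
Log2 ratio of SB590885 over vehicle for each detected gene of the 10 exocytosis lists, with the 6 members' detected genes enlarged and coloured, open points for bounds, black bars for list medians without the members, and 1.5-fold as dotted lines. RIMS2, SYT1, STXBP6 and SCG2 lie beyond the upper line and SYTL2 beyond the lower one, and the list medians lie between -0.13 and 0.04.

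Markers of cell types that use regulated exocytosis were mostly at background. Of 16 neuron and neuroendocrine markers 14 had a probe and 2 were detected. ENO2, neuronal enolase, was 1.62-fold higher after SB590885 (559.6 against 345.5 with vehicle), and TUBB3, a neuronal tubulin that carcinoma lines also express, was 1.27-fold higher (1781.7 against 1403.4). The markers CHGA, CHGB, SYP, INSM1, NEUROG3, NCAM1, UCHL1, STMN2, ELAVL3, ELAVL4, RBFOX3 and GAP43 were not detected on either array. Summed over the brightest probe of each gene, the list stood at 3728.1 after SB590885 and 3149.2 with vehicle, undetected probes included. Colon epithelium markers were detected for 6 of 10 genes, among them EPCAM (6439.4 after SB590885, 4420.2 with vehicle) and KRT8 (2548.3 after SB590885, 2978.1 with vehicle), with a median log2 ratio of -0.11. KRT20, VIL1, CDX1 and LGALS4, markers of differentiated colon epithelium, were not detected. Of leukocyte, fibroblast and endothelial markers 1 of 7, 3 of 6 and 0 of 5 were detected, none past 1.5-fold. Their summed levels were 994.8, 745.8 and 555.7 after SB590885, against 1003.6, 741.1 and 562.4 with vehicle. The part of ENO2, or of any other marker here, in the results for the 6 genes was not tested. In bulk RNA, more cells with a transcript and more transcript per cell cannot be told apart.

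The 6 genes lie on 6 different chromosomes, RIMS2 on 8, SYT1 on 12, STXBP6 on 14, SYT7 on 11, SYT11 on 1 and SNAP25 on 20. For each, the 5 nearest detected genes on either side were listed in RefSeq's GRCh38.p14 order. Around RIMS2 8 of 10 neighbours had measured ratios above 0, with a median log2 ratio of 0.18, and DCAF13, directly before RIMS2 in that order, was 1.51-fold higher after SB590885. Around SYT1 6 of 10 were above 0, with a median of 0.04 and none past 1.5-fold. Around STXBP6 8 of 10 were below 0, with a median of -0.14 and none past 1.5-fold. The neighbours of SYT7 and SYT11 had medians of -0.02 and -0.06, likewise with none past 1.5-fold. Around SNAP25, itself undetected, the median was 0.03, and JAG1, a Notch ligand, was 1.60-fold higher after SB590885. Over all detected genes 49.8% had measured ratios above 0.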

How the data were processed

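Total RNA was purified with a QIAGEN kit and copied into biotin-labelled cRNA, per the labels' protocols. The authors deposited a normalized table of linear intensity values and detection p-values for 47318 probes. The sorted intensities of its 2 arrays differ by at most 0.129. The series matrix holds the same intensities. Each intensity in the deposited table named non-normalized is 1.025 times the normalized one, and its detection p columns, a score that reaches 1.025, carry the same factor. No source used here gives the array software or the normalization method. The number of arrays, 1 per group, limits the precision.

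Of 30119 annotated probes, 30111 have 1 gene and 8 with several were left unnamed. Symbols were looked up through Entrez identifiers for 30072 probes, whether or not the symbol changed. A gene's value is that of its detected probe (p under 0.01) with the highest mean log2 intensity. Log2 ratios are SB590885 over vehicle. No test was possible, and genes were counted by a rule of size, 1.5-fold. Background correction used neqc in limma 3.58.1 (R 4.3.3), with negative controls inferred from detection p. It starts from values that were already normalized. Other steps ran in Python 3.11.15, and the counting was tested on simulated data. Changes were placed there only in probes bright with vehicle, so calling a rise in a probe undetected with vehicle was not tested. Genes named are the members, list genes past 1.5-fold or highest or lowest in their list, and genes nearest to a member; others, such as SNAP23, STX1A, NSF, CPLX1, SYTL3, RAB3A, SCG5 and neighbours, were chosen after their values were seen. The members and lists were chosen with earlier results of these data known.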

Additional observations from a re-analysis of the deposited data

How the results depend on the processing

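Of 176 values recomputed under 9 alternatives, 155 stayed close to those reported (within 0.25 on the log2 scale, the SD between 2 probes of a gene, or within 1.5 times for counts), 21 moved and 0 changed sign among differences past 1.5-fold. Many of the 176 are list medians near 0, which could hardly move by this rule, and a member's ratio is left out where a setting removed it. The 155 therefore say little about the members. With neqc at offsets of 16 and 50 the log2 ratios were 2.13 and 1.44 for RIMS2, 2.002 and 1.34 for SYT1 and 1.95 and 1.29 for STXBP6, and with offset 16 that of SYT11 was 0.39. The mean of detected probes, with a dim SYT7 probe that has no fold set at 0, gave 0.28 for SYT7 and 0 pathway genes at least 1.5-fold lower. With detection required on both arrays 1 member was left and 0 were at least 1.5-fold higher, because RIMS2, SYT1 and STXBP6 were not detected with vehicle. A 2-fold rule left 0 members and 0 pathway genes lower, and counted 26 genes higher and 14 lower over all genes, against 157 and 121. With neqc these were 538 and 482 at offset 16 and 303 and 241 at offset 50, and at offset 16 there were 2 pathway genes higher (SCG2 and STXBP5) and 3 lower (SYTL2, CPE and STXBP4). The series matrix equals the normalized table, so it gave no separate values. SNAP25, undetected, has no ratio. No paired analysis was possible because each group had 1 array. Detection near background and the lack of replicates limit every value of RIMS2, SYT1, STXBP6 and SYT11.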
